A study of Mus musculus with 11 samples.

Results

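The genes described here encode 35 nuclear-encoded subunits of respiratory complex I, the NADH:ubiquinone oxidoreductase of the inner mitochondrial membrane. They were chosen by gene symbol, not by any measured value, and all 35 were found among the 21677 genes of the exon tables and the 18824 genes of the intron tables. RNA came from C2C12 cells, a line of mouse myoblasts, that had been infected with an adenovirus carrying, behind a U6 promoter, either a short hairpin against Zc3h10 (shZc3h10) or a scrambled hairpin (scramble). The multiplicity of infection was 100, and all cells, those with the scrambled hairpin included, then received 4-thiouridine (4sU) at 300 µM for 30 min. Newly made RNA, recovered through its 4sU, is represented by 3 shZc3h10 and 2 scramble libraries. For total RNA, kept from the same harvests, each hairpin has 3. The submitters' labels call the source mouse muscle, while the cell line and the cell type are given as C2C12 and myoblasts.

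Complex I takes electrons from NADH, passes them along a flavin and a chain of iron-sulphur clusters to ubiquinone, and moves protons across the inner membrane as it does so. Its matrix arm holds the flavin and the clusters in core subunits made from nuclear genes. Its membrane arm has core subunits encoded by mitochondrial DNA, which are not among the genes described here, and many small accessory subunits made from nuclear genes surround both arms. In muscle the enzyme feeds the respiratory chain that supplies most ATP during sustained work. The genes were grouped as 6 core subunits, 8 accessory subunits of the matrix arm, 10 of the proximal and 10 of the distal membrane arm, and the acyl carrier protein Ndufab1. Near the junction of the arms these groups are a matter of convention.

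Depth over exons ranged from 10369374 to 19690198 counts among 4sU libraries and from 31058706 to 54075687 among total RNA libraries. Over introns it ranged from 26272902 to 41597832 and from 6007028 to 12213901, respectively. Levels are given as CPM (counts scaled to a common library size) normalised within 1 kind of RNA, and differences as log2 fold changes with their standard error (SE), shZc3h10 minus scramble. A gene was called when edgeR's Benjamini-Hochberg adjusted p over all genes was below 0.05. Zc3h10, the targeted gene, averaged 14.9 ± 3.34 exonic CPM with shZc3h10 (SD, n = 3) and 20.8 ± 0.987 with scramble (SD, n = 2) in newly made RNA, a log2 fold change of -0.49 (edgeR adjusted p = 0.128). Its introns had a log2 fold change of -0.97 there (SE 0.352, edgeR adjusted p = 0.0842). In total RNA it went against the labels, with 86.1 ± 24.0 under the label shZc3h10 (SD, n = 3) and 42.0 ± 11.6 under scramble (SD, n = 3) (log2 fold change 1.04, edgeR adjusted p = 0.0522). Its introns in total RNA were called higher under the label shZc3h10, by 1.07 (SE 0.263, edgeR adjusted p = 0.0325). The names of all 6 total RNA libraries' files carry the hairpin that their labels do not. Directions in total RNA are therefore those of the libraries as labelled, and by the file names each would have the opposite sign. The myoblast list (Myod1, Myf5, Des, Cdh15, Itga7, Chrna1 and Msc) was detected throughout, with summed CPM of 1014 to 1080 under shZc3h10 and 1807 to 1839 under scramble in newly made RNA, where 5 of 7 genes were called lower. Its sum in total RNA was 3207 to 3993 under the label shZc3h10 and 1545 to 2283 under scramble, with 1 gene called higher. Myotube markers, led by Tmem8c, summed to 162 to 186 CPM (shZc3h10) against 181 to 220 (scramble) in newly made RNA. In total RNA they summed to 241 to 260 against 176 to 230, and none was called in either. Adipocyte markers, nearly all of it Lpl, summed to 394 to 453 against 131 to 143 CPM in newly made RNA and to 29.4 to 32.4 against 103 to 119 in total RNA. The defining adipocyte genes Adipoq, Plin1 and Lep had 0 counts in the 4sU scramble libraries, but each had some counts in every other group. Osteoblast markers, mostly Runx2, summed to 157 to 204 against 130 to 180 CPM in newly made RNA, and to 17.4 to 25.1 against 22.2 to 47.6 in total RNA, where 1 gene was called lower. Macrophage markers, mostly Cd68, summed to 25.1 to 30.4 against 26.3 to 30.1 CPM in newly made RNA and to 2.89 to 5.51 against 3.36 to 4.90 in total RNA, with none called. Endothelial markers summed to less than 2 CPM in each library. The part of these differences between libraries in the results for complex I was not tested.

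Promoter sequence was read for 32 of the 35 genes from RefSeq (GRCm38.p6), because subunits of 1 enzyme are often discussed as sharing regulators. NRF1 is a regulator of nuclear genes for mitochondrial proteins. The letters TGCGCA, the same on both strands, are only part of its known motif. Longer or variant forms of that motif were not searched, so genes without these letters may still carry it. Within 250 bases before the start, TGCGCA was found in 7 of 32 genes: Ndufa5, Ndufa6, Ndufa9, Ndufb4, Ndufb6, Ndufs5 and Ndufs6. By promoter this was 8 of 34, or 23.5%, where 6.43% of all 32851 promoters in the table held it. The letters CCGGAAG, the core bound by ETS factors such as GABPA, were searched on both strands and found in 3 of 32 genes (Ndufb6, Ndufb7 and Ndufs3), 8.82% of the promoters against 6.91% of all. The 120 bases before the start are shown 5′ to 3′ for 2 genes with the NRF1 letters, 2 with the ETS letters, and the 3 genes whose exons were called in a hairpin comparison below. Capitals mark a match to either set of letters, and the last 3 have none in this stretch.
Ndufa5 (chr6:24527691-24527810, minus strand): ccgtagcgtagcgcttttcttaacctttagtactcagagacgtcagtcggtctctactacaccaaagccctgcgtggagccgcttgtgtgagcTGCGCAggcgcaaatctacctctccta
Ndufs5 (chr4:123718187-123718306, minus strand): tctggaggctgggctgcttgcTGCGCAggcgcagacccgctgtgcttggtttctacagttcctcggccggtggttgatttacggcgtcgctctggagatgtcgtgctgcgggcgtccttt
Ndufb7 (chr8:83566638-83566757, plus strand): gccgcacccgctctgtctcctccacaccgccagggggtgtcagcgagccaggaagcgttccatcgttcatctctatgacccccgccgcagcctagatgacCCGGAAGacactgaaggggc
Ndufs3 (chr2:90904722-90904841, minus strand): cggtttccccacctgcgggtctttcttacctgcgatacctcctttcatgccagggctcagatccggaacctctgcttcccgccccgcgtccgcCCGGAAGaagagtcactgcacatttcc
Ndufv3 (chr17:31519995-31520114, plus strand): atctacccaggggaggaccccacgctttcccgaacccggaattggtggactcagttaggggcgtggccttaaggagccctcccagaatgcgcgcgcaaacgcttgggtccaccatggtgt
Ndufs8 (chr19:3912775-3912894, minus strand): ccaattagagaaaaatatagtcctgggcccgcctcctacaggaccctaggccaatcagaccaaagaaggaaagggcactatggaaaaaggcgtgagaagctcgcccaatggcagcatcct
Ndufa13 (chr8:69902021-69902140, minus strand): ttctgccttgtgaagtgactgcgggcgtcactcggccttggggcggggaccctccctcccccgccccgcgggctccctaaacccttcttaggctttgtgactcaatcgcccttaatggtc

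In newly made RNA, exons of 1 of the 35 genes changed with the Zc3h10 hairpin. Ndufv3, a small accessory subunit beside the flavin site, had 17.8, 21.1 and 23.7 CPM in the shZc3h10 libraries and 13.6 and 10.2 in the scramble libraries. All shZc3h10 libraries lay above both scramble libraries. Ndufv3 rose by 0.80 (SE 0.198, edgeR adjusted p = 0.0109). In RNA from whole cultures, a change in the number of cells with a transcript and a change in its amount per cell cannot be told apart. Over all 13637 genes tested 5.66% were called higher and 4.69% lower, so 1 called higher and 0 lower of 35 is no more than the background. At an unadjusted p under 0.05 the count of these genes was 3 of 35, where 22.8% of all genes passed, and DESeq2 also called 1. The call of Ndufv3 was lost without shZc3h10 library 3 (edgeR adjusted p = 0.0581) or without scramble library 2 (edgeR adjusted p = 0.123). The exact two-sided permutation p for its CPM was 0.1, the smallest that 3 against 2 libraries allow. Introns of Ndufv3 had 9.75, 14.9 and 13.3 CPM against 8.99 and 7.85, again without overlap. Their log2 fold change was 0.58 (SE 0.198, edgeR adjusted p = 0.0679).

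The 6 core subunits had log2 fold changes in 4sU exons of -0.19 to 0.10, and none was called. Ndufs8, which carries iron-sulphur clusters, had 108, 96.7 and 123 CPM (shZc3h10) and 109 and 123 (scramble). Ndufs1, the largest cluster-bearing subunit, had 95.4, 84.7 and 78.7 against 94.0 and 89.0 CPM. Ndufv1, which binds the flavin and NADH, had 27.9, 28.2 and 25.4 against 28.2 and 34.0 CPM. In each of these 3 genes the groups overlapped or met, and the differences were within the spread between libraries. Ndufv2, a cluster-bearing neighbour of Ndufv1, had 28.3, 21.0 and 29.3 CPM against 21.8 and 27.5. Ndufs3, a core subunit of the matrix arm, had 15.7, 18.4 and 21.4 against 17.7 and 21.2 CPM. Ndufs7, which holds the last cluster before ubiquinone, had 15.8, 15.3 and 21.3 against 19.4 and 17.4 CPM. The groups overlapped in these 3 genes as well.

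Among accessory subunits, Ndufc1, a small subunit of the membrane arm, had 5.02, 5.16 and 6.28 CPM in the shZc3h10 libraries against 3.43 and 3.37, without overlap. Its log2 fold change of 0.69 (SE 0.276) did not pass (edgeR adjusted p = 0.129). Ndufs4, a late-joining matrix arm subunit whose loss causes Leigh syndrome, had 56.2, 40.4 and 47.2 CPM against 34.8 and 37.9. The shZc3h10 libraries of Ndufs4 were all higher, by 0.40 (SE 0.165, edgeR adjusted p = 0.139), and the gene passed only without shZc3h10 library 2 (0.52, edgeR adjusted p = 0.0329). Ndufab1, the mitochondrial acyl carrier protein that also serves fatty acid synthesis, had 9.90, 12.7 and 13.6 CPM against 16.7 and 14.3. Its shZc3h10 libraries were all lower, with a log2 fold change of -0.37 (SE 0.198, edgeR adjusted p = 0.286). Ndufa1, a small membrane subunit, had 2.01, 2.35 and 2.42 CPM against 1.31 and 1.98, and a log2 fold change of 0.47 (SE 0.407).

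Ndufa12, the matrix arm subunit that takes the place of the assembly factor Ndufaf2, had 10.5, 8.26 and 9.73 exonic CPM against 11.8 and 10.6 (log2 fold change -0.24, SE 0.205). Its introns had 60.3, 53.9 and 60.5 CPM in the shZc3h10 libraries and 76.0 and 69.6 in the scramble libraries, without overlap. Introns of Ndufa12 fell by 0.32 (SE 0.101, edgeR adjusted p = 0.0495), the 1 intron call among 33 genes tested. The call was lost in each of the 5 fits that left out 1 library, with edgeR adjusted p from 0.0556 to 0.373. Over all 13553 genes with tested introns, 8.95% were called higher and 6.57% lower. Introns of Ndufb8 and Ndufb11 had 0 counts in all 11 libraries and were not tested.

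The remaining genes had 4sU exon changes near 0. In the matrix arm, Ndufa5 was at 0.22, Ndufa7 at 0.13, Ndufs6 at 0.10, Ndufa6 at 0.09 and Ndufa2 at -0.14 on the log2 scale. In the proximal membrane arm, Ndufa9 was at 0.29, Ndufa11 at 0.21, Ndufa13 at 0.20, Ndufa3 at 0.19, Ndufc2 at 0.18, Ndufa10 at 0.13, Ndufs5 at 0.04 and Ndufa8 at -0.09. In the distal arm, log2 fold changes ran from -0.10 (Ndufb4) to 0.27 (Ndufb9). Between them were Ndufb8 at 0.25, Ndufb6 at 0.16, Ndufb5 at 0.14, Ndufb11 at 0.10, Ndufb3 at 0.08, Ndufb7 at -0.02, Ndufb10 at -0.07 and Ndufb2 at -0.08. In all, 22 of 35 genes were above 0, with a median of 0.10 against -0.0030 over all genes tested. The 2 groups of libraries did not overlap in 8 of 35 genes upward, where 18.2% of all genes did so, and in 2 of 35 downward, where 18.9% did. The summed level of the 35 genes was 637, 575 and 669 CPM (shZc3h10) against 605 and 604 (scramble), so the groups overlapped.

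**Figure D1:**
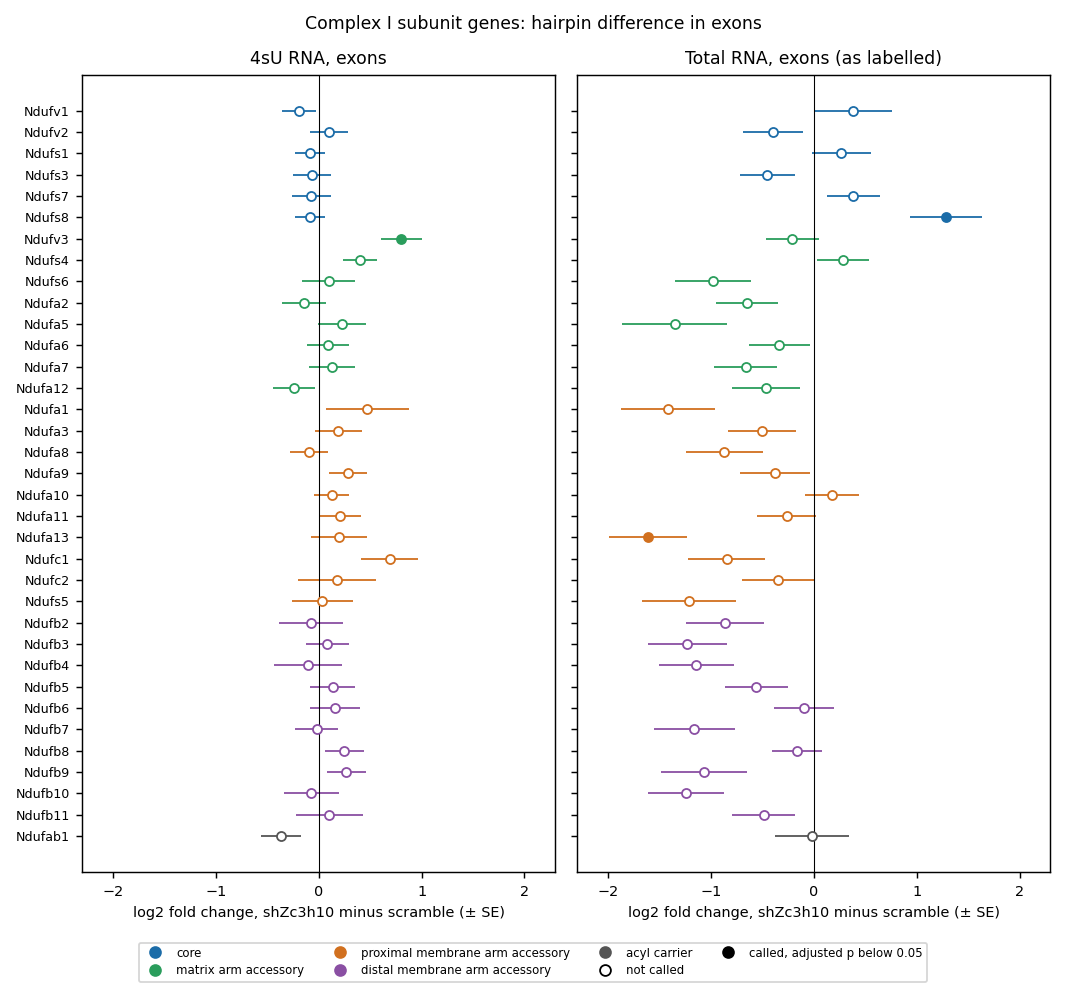
Log2 fold change of exons (x axis, shZc3h10 minus scramble, bars ± SE) for each of the 35 genes (y axis, coloured by role) in 4sU RNA (left) and in total RNA as labelled (right). Filled points were called at an adjusted p below 0.05: Ndufv3 in 4sU RNA, and Ndufs8 and Ndufa13 in total RNA, where 29 of 35 points lie below 0.

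In total RNA the core subunit Ndufs8 was higher and the accessory subunit Ndufa13 lower in the libraries labelled shZc3h10, and the other 33 genes did not pass the test. So 1 of 35 was called higher and 1 lower, where 3.06% of all 13846 genes were called higher and 3.36% lower. The median log2 fold change of the 35 genes was -0.49 against -0.10 over all genes tested, and 29 of 35 values were below 0. At an unadjusted p under 0.05 there were 15 of 35 (42.9%), where 26.9% of all genes passed. The count of calls depended on the method. DESeq2 called 6 (17.1%) with 13.6% of all genes called, and edgeR without a filter on low counts called 10 (28.6%) with 7.7% of all genes called.

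Ndufs8 had 1159, 1659 and 1757 CPM under the label shZc3h10 and 566, 850.4 and 464 under scramble. The lowest of the former lay above the highest of the latter. The difference was 1.28 (SE 0.348, edgeR adjusted p = 0.0418), a fold of 2.43. The exact two-sided permutation p of 0.1 was the smallest that 3 against 3 libraries allow. Ndufs8 stayed higher in all 6 fits that left out 1 library, by 1.12 to 1.63. It lost the call in 4 of them: without shZc3h10 library 1 or 2 or without scramble library 1 or 3 (edgeR adjusted p from 0.0621 to 0.212). Introns of Ndufs8 had 54.6, 69.5 and 53.0 CPM against 34.6, 37.8 and 19.5, also without overlap. Their log2 fold change was 0.95 (SE 0.262, edgeR adjusted p = 0.0513), just short of a call, and DESeq2 called it (adjusted p = 0.0120) with 9.08% of all genes called.

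The other core subunits were spread around 0 in total RNA, and the library labelled shZc3h10 3 stood apart from its group in several of them. Ndufv1 had 184, 213 and 65.2 CPM under the label shZc3h10 and 125, 138 and 92.0 under scramble (log2 fold change 0.38, SE 0.377). Ndufs1 had 136, 125 and 80.1 against 96.7, 110.5 and 76.2 CPM (0.27, SE 0.289). In both, shZc3h10 libraries 1 and 2 were the highest of the 6 and library 3 was among the lowest. Ndufs7 had 52.0, 78.7 and 68.7 CPM against 48.3, 57.0 and 47.6, with overlap (0.38, SE 0.260). Ndufv2 had 25.6, 30.1 and 19.1 CPM against 39.6, 22.3 and 36.6 (-0.40, SE 0.288). Ndufs3 had 11.6, 12.0 and 7.62 CPM against 14.5, 12.9 and 15.3, without overlap (-0.45, SE 0.270, edgeR adjusted p = 0.297). Introns of Ndufs3 went the other way, with 194, 208 and 179.5 CPM against 126, 173 and 95.8 (0.56, SE 0.206, edgeR adjusted p = 0.150).

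Ndufa13, also known as GRIM-19, a subunit needed for assembly of the enzyme, had 3.53, 3.57 and 1.71 CPM under the label shZc3h10 and 11.4, 4.74 and 10.9 under scramble. All 3 of the former were below all 3 of the latter. The difference was -1.61 (SE 0.382, edgeR adjusted p = 0.0249). The call was lost without shZc3h10 library 3 or without scramble library 1 or 3 (edgeR adjusted p from 0.0849 to 0.150). Introns of Ndufa13 had 30.0, 32.9 and 15.5 against 30.3, 21.2 and 29.7 CPM, with overlap (log2 fold change -0.05). RefSeq places Tssk6 over part of Ndufa13, and whether the counting used strand is not given in the sources used here, so some reads could belong to either gene. Ndufa1, next in size, had 0.728, 1.01 and 1.15 against 2.65, 0.948 and 4.03 CPM (-1.42, SE 0.455, edgeR adjusted p = 0.0705). Here scramble library 2 sat among the shZc3h10 libraries.

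The same library stood apart for most of these genes. Scramble library 2 was below both other scramble libraries for 28 of the 35 genes (80%), where 40.6% of all tested genes showed this. It was not above the highest library labelled shZc3h10 for 32 of the 35 (91.4%), where 71.6% of all tested genes showed this. Ndufc1 showed the pattern, with 3.79, 1.71 and 4.46 CPM in the scramble libraries and 2.14, 1.95 and 1.47 in those labelled shZc3h10. Ndufa12 showed it too, with 15.9, 6.32 and 15.1 CPM against 9.23, 10.1 and 7.64. Ndufv3, in contrast, had its highest value in scramble library 2 (32.8, 43.1 and 26.7 against 27.5, 31.3 and 30.0 CPM), and Ndufab1 had overlapping groups (4.83, 2.37 and 2.70 against 4.20, 3.49 and 2.11 CPM). The groups did not overlap in 2 of 35 genes upward (Ndufs8 and Ndufs4), where 13.9% of all genes did so. Downward the count was also 2 of 35 (Ndufa13 and Ndufs3), where 15.4% did.

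**Figure D2:**
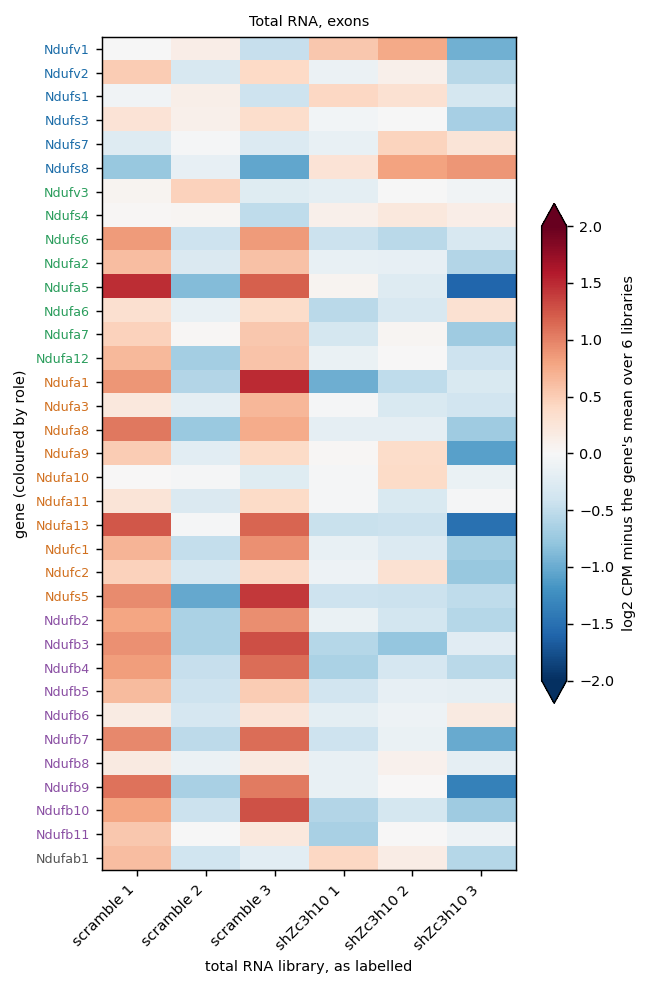
Log2 exonic CPM of each gene (y axis, coloured by role as in the plot of fold changes) minus its mean over the 6 total RNA libraries (x axis, as labelled); red is above and blue below that mean. Scramble libraries 1 and 3 are red for most accessory subunits, scramble library 2 is blue with the shZc3h10 libraries, and Ndufs8 runs the opposite way.

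Without scramble library 2, 1 gene was called higher and 13 lower, where 8.64% of all 14056 genes were called higher and 9.78% lower. The higher gene was again Ndufs8 (1.63, SE 0.373, edgeR adjusted p = 0.00879). The 13 lower genes were 2 of the matrix arm (Ndufs6 and Ndufa5), 5 of the proximal arm (Ndufa1, Ndufa8, Ndufa13, Ndufc1 and Ndufs5) and 6 of the distal arm (Ndufb2, Ndufb3, Ndufb4, Ndufb7, Ndufb9 and Ndufb10). Their log2 fold changes ran from -1.84 (Ndufa13) to -1.08 (Ndufc1). The median of the 35 genes in this fit was -0.61, against -0.03 over all genes tested. Leaving out scramble library 1 or scramble library 3 instead left 0 calls among the 35 by edgeR, where 1.42% and 1.13% of all genes were called, so the number called rested on which scramble libraries were used, among all genes as among these.

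By role, the distal membrane arm was the group furthest below 0 with all libraries in. All 10 of its genes were below 0, with a median of -0.97, 6 at an unadjusted p under 0.05 and 0 called by edgeR after adjustment. Ndufb10, a subunit with disulphide-bonded cysteines, had 3.72, 4.40 and 3.43 CPM in the libraries labelled shZc3h10 against 9.61, 4.17 and 13.6 (-1.25, SE 0.370, edgeR adjusted p = 0.0571). Ndufb3, a single-pass membrane subunit, had 19.8, 17.3 and 25.3 against 55.3, 19.0 and 71.7 CPM (-1.23, SE 0.383). Ndufb9, a subunit of the LYR family that binds the acyl carrier protein, had 25.3, 27.9 and 10.9 against 59.1, 17.9 and 57.3 CPM (-1.07, SE 0.421). In all 3 the second scramble library lay within the range of the libraries labelled shZc3h10. The others of this arm were Ndufb7 at -1.16, Ndufb4 at -1.14, Ndufb2 at -0.86, Ndufb5 at -0.56, Ndufb11 at -0.49, Ndufb8 at -0.16 and Ndufb6 at -0.09.

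The proximal arm had 9 of 10 genes below 0 and a median of -0.68. Beside Ndufa13 and Ndufa1 it held Ndufs5 at -1.22, Ndufa8 at -0.87, Ndufc1 at -0.85, Ndufa3 at -0.50, Ndufa9 at -0.38, Ndufc2 at -0.35, Ndufa11 at -0.26 and Ndufa10 at 0.17. In the matrix arm 7 of 8 accessory genes were below 0, with a median of -0.56. Ndufa5 had 3.43, 2.75 and 1.10 CPM against 9.20, 1.80 and 7.56 (-1.35, SE 0.507), with scramble library 2 among the lowest. Ndufs6, a zinc-binding subunit, had 1.50, 1.40 and 1.62 against 3.67, 1.52 and 3.67 CPM (-0.98, SE 0.371). Ndufa7 was at -0.66, Ndufa2 at -0.65, Ndufa12 at -0.47, Ndufa6 at -0.34, Ndufv3 at -0.21 and Ndufs4 at 0.28. Ndufab1 was at -0.02.

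**Figure D3:**
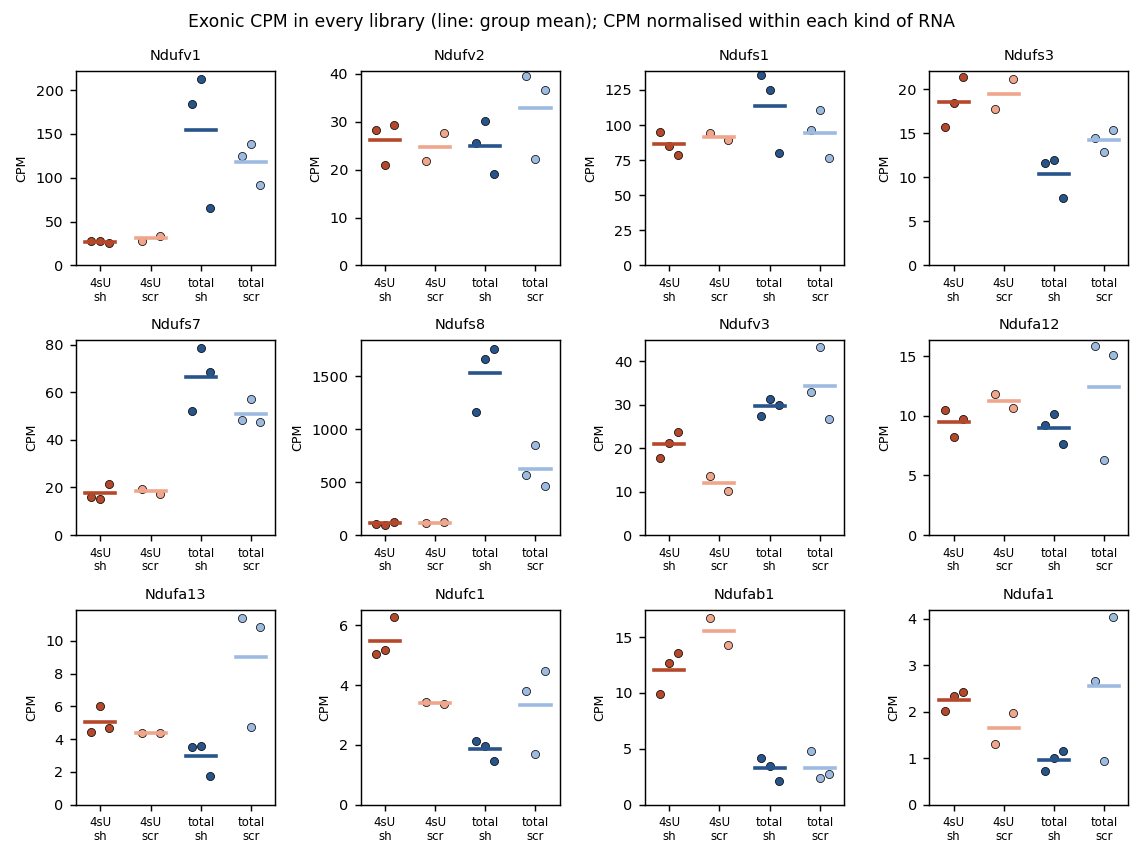
Exonic CPM (y axis, each panel on its own linear scale from 0) of 12 genes in every library, with points for libraries and lines for group means; sh is shZc3h10, scr is scramble, and CPM were normalised within each kind of RNA, so 4sU and total levels are not on 1 scale. Ndufv3 separates the groups in newly made but not in total RNA, and Ndufs8 in total but not in newly made RNA.

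The sum over the 35 genes in total RNA was dominated by Ndufs8. It was 1900, 2498 and 2298 CPM in the libraries labelled shZc3h10 against 1403, 1518 and 1226, without overlap. Without Ndufs8 the sum was 741, 838 and 542 against 838, 668 and 762 CPM, and the groups overlapped.

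Introns of these genes in total RNA had values on both sides of 0. Of 32 genes tested 0 were called by edgeR, with 3 at an unadjusted p under 0.05 (17.9% of all genes) and 1 called by DESeq2, where 3.08% of all 13877 genes were called higher and 2.1% lower. Their median was 0.02, and 17 of 32 were above 0. Without scramble library 2, introns of Ndufs3 and Ndufs8 were called, along with 7.39% of all genes. The change of exons beyond that of introns was tested in 1 model with the library as a block. It was below 0 for 25 of 32 genes, with a median of -0.39 against -0.09 over all 11891 genes. No gene of complex I was called there by edgeR, 9 had an unadjusted p under 0.05 (17.8% of all genes did), and of all genes 0.0168% were called in each direction, 0.0168% higher and 0.0168% lower. The lowest were Ndufb10 (-1.78, SE 0.527, edgeR adjusted p = 0.141) and Ndufa13 (-1.49, SE 0.321, edgeR adjusted p = 0.0955). Without scramble library 2 the count was 8 of 32 (25%), where 4.81% of all genes were called. In 4sU RNA the same test called 0 of 33 genes, with 2 at an unadjusted p under 0.05 (8.96% of all genes), where 0.0423% of 11812 genes were called higher and 0.0677% lower.

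The shortest transcripts had the lowest medians in total RNA, but over all genes the medians did not follow length throughout. Of the 35 genes, 19 have a longest GENCODE transcript of up to 1000 bp. Their median log2 fold change in total exons was -0.87, with 18 of 19 below 0, against -0.29 for the 16 longer ones. Over all genes tested, the median was -0.67 for the 166 genes of up to 700 bp, -0.25 for the 403 of 700 to 1000 bp and -0.11 for the 1049 of 1000 to 1500 bp. It was -0.04 both for the 2788 of 1500 to 2500 bp and for the 3919 of 2500 to 4000 bp, and -0.14 for the 4649 above 4000 bp. In the class up to 700 bp the 9 complex I genes had a median of -0.65, close to that of the class. In the class of 700 to 1000 bp the 10 complex I genes had -1.03, lower than the class. In 4sU exons the class medians were between -0.017 and 0.0025. Spearman's rho of the fold change with length over the 35 genes was 0.467 in total and -0.0919 in 4sU exons, as a description of genes that share their libraries.

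The share of exon counts taken by other short genes moved between the same libraries. The 1673 genes of up to 1000 bp outside complex I took 2.16% and 2.24% in scramble libraries 1 and 3 and 1.51% in scramble library 2. In the libraries labelled shZc3h10 they took 1.72%, 1.94% and 1.71%. In 4sU RNA the share was 0.81%, 0.857% and 0.878% (shZc3h10) and 0.964% and 0.783% (scramble). The part of transcript length in the lower values of the accessory subunits was not tested beyond these classes.

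**Figure D4:**
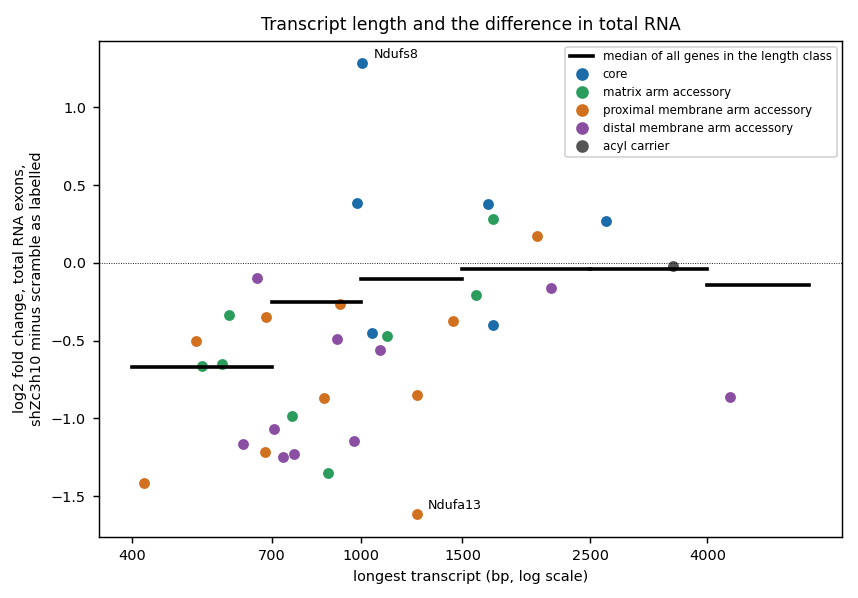
Log2 fold change of total RNA exons (y axis, shZc3h10 minus scramble as labelled) against the length of the longest GENCODE transcript (x axis, log scale) for the 35 genes, coloured by role; black bars are medians of all genes tested in each length class. Genes of up to 1000 bp lie low. Those of up to 700 bp have a median close to that of their class, and those of 700 to 1000 bp have a lower one. Ndufs8 lies above and Ndufa13 below their class medians.

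The hairpin difference itself differed between the kinds of RNA for 2 of the 35 genes. For Ndufs8 the 4sU difference minus the total difference was -1.51 (SE 0.381, edgeR adjusted p = 0.0128), and for Ndufa13 it was 1.65 (SE 0.523, edgeR adjusted p = 0.0429). Over all 15046 genes 5.55% were called higher and 8.56% lower in this comparison. As labelled, 28 of the 35 genes were above 0, with a median of 0.49 against 0.00045 over all genes. Scaling by library totals alone moved the median of all genes by 0.49, and the complex I median was then 0.47 above it. A change of scaling moves all genes by nearly the same amount, so this distance does not test the result. Without total scramble library 2 the count was 13 (37.1%), where 21.8% of all genes were called. The comparison rests on the labels of total RNA, against which Zc3h10 itself went, so it was also fitted with the sign of the total RNA difference turned, an alternative chosen after seeing the data. Ndufs8 was then at 1.28 (SE 0.388, edgeR adjusted p = 0.361) and Ndufa13 at -1.31 (SE 0.514, edgeR adjusted p = 0.383). In that fit 11 of the 35 genes were above 0, with a median of -0.29 against 0.02 over all genes. By edgeR 0 of the 35 and 0 of all 15046 genes (0%) were called, with 6 of the 35 and 11.3% of all genes at an unadjusted p under 0.05.

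Newly made and total RNA were then compared over both hairpins together, a contrast that does not depend on which label the total RNA groups carry. Here CPM were normalised over all 11 libraries. Exons of 21 of the 35 genes were called lower and 3 higher in 4sU RNA, where 35.9% of all 15046 genes were called lower and 35.1% higher. The median was -0.85 against -0.01 over all genes. By transcript length, the medians over all genes were -0.66 up to 700 bp, -0.76 at 700 to 1000 bp and -0.56 at 1000 to 1500 bp. They were -0.43 at 1500 to 2500 bp, -0.15 at 2500 to 4000 bp and 0.28 above 4000 bp. In the same order of length classes, the complex I medians were -0.38, -1.09, -0.87, -1.48, 0.13 and -0.32. The last 2 classes held 2 and 1 of the 35 genes. The part of transcript length in the complex I median was not tested. Scaling by library totals alone moved the median of all genes by 0.78 and gave 6 lower and 8 higher, where 73.2% of all genes were called. Measured from the median of all genes, the complex I median was -0.84 with the main scaling and -0.86 with library totals. A change of scaling moves all genes by nearly the same amount, so this distance had to stay nearly the same and does not test the result.

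Ndufs8 was the furthest toward total RNA. It had 79.9, 70.2 and 91.1 CPM (shZc3h10) and 82.4 and 92.0 (scramble) in newly made RNA. Its total RNA levels were 1566, 2291 and 2238 CPM under the label shZc3h10 and 665, 1064 and 588 under scramble. Every total RNA library was above every 4sU library, and the log2 difference was -3.90 (SE 0.228, edgeR adjusted p = 4.15e-10). Ndufv1 had 18.8 to 25.4 CPM in newly made and 83.1 to 294 in total RNA (-3.01, SE 0.273). Ndufs7 had 11.1 to 15.8 and 56.7 to 109 CPM (-2.48, SE 0.178). These 3 core subunits were below 0 in introns too, at -2.06 (Ndufs8), -1.11 (Ndufv1) and -1.08 (Ndufs7), each called by edgeR.

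At the other end, Ndufa3, a small subunit of the proximal arm, had 6.81 to 11.8 CPM in newly made and 2.34 to 4.79 in total RNA (1.54, SE 0.211, edgeR adjusted p = 4.3e-06). Ndufab1 had 7.32 to 12.7 and 2.68 to 5.67 CPM (1.27, SE 0.224). In both, all 4sU libraries were above all total RNA libraries. Ndufs6 had 3.47 to 6.49 and 1.90 to 4.66 CPM, with overlap (0.86, SE 0.241, edgeR adjusted p = 0.00392).

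Other genes called lower in 4sU exons were Ndufb3 at -2.15, Ndufa10, related to nucleoside kinases, at -2.10, Ndufv3 at -1.80, Ndufb9 at -1.38, Ndufb4 at -1.35, Ndufb8 at -1.16, Ndufb10 at -1.16, Ndufc2 at -1.09 and Ndufb11 at -1.02. Ndufs1 was at -1.01, Ndufv2 at -0.96, Ndufa13 at -0.93, Ndufb5 at -0.89, Ndufa9 at -0.87, Ndufa8 at -0.85, Ndufa12 at -0.82, Ndufs4 at -0.80 and Ndufa6 at -0.79. The 11 genes not called lay between -0.50 (Ndufa1) and 0.01 (Ndufb7). The core group had 5 of 6 genes called lower, the distal arm 7 of 10, the proximal arm 5 of 10 and the matrix arm 4 of 8.

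Introns ran the other way for most of the genes. Of 33 genes tested, 19 were called higher in 4sU RNA and 8 lower, where 34.5% of all 15320 genes were called higher and 42.8% lower. Their median was 0.58 against -0.22 over all genes. Library totals alone gave 9 higher and 10 lower, where 76.9% of all genes were called. The complex I median was 0.80 above that of all genes with the main scaling and 0.81 with library totals. As in exons, this distance hardly depends on the scaling and does not test the result. The highest were Ndufa5 (1.47, SE 0.126), Ndufa9 (1.36, SE 0.140) and Ndufa1 (1.33, SE 0.418). The 8 called lower were Ndufs8, Ndufs3 (-1.28), Ndufb10 (-1.21), Ndufb9 (-1.19), Ndufv1, Ndufs7, Ndufb4 (-0.93) and Ndufa13 (-0.55), so 4 of the 6 core subunits were among them. The other 2, Ndufv2 and Ndufs1, were called higher, at 1.26 and 1.09.

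**Figure D5:**
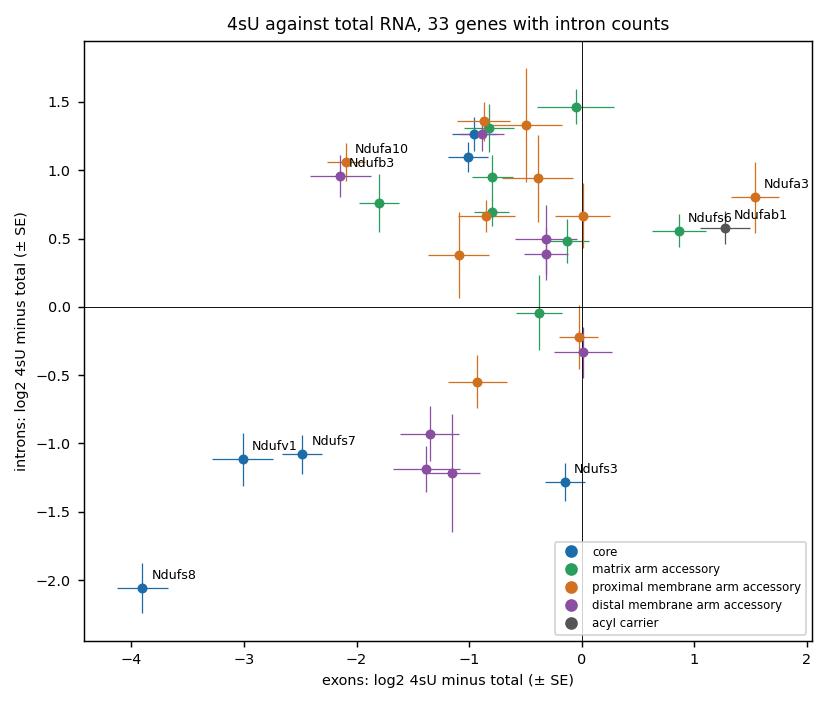
Log2 4sU minus total in exons (x axis) and in introns (y axis), each ± SE over all 11 libraries, for the 33 genes with intron counts, coloured by role. Most genes sit at upper left, lower in 4sU exons and higher in 4sU introns; Ndufs8, Ndufv1 and Ndufs7 sit at lower left, and Ndufa3, Ndufab1 and Ndufs6 at upper right.

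The share of a gene's counts that fell in introns shows the same difference in another unit. Over the 35 genes together it was 83.3% ± 0.947 (SD, n = 3, shZc3h10) and 82.3% ± 0.670 (SD, n = 2, scramble) among newly made transcripts. For total RNA it was 9.32% ± 1.83 (SD, n = 3, labelled shZc3h10) and 15.4% ± 2.05 (SD, n = 3, labelled scramble). Over all genes the corresponding shares were 71.0%, 68.1%, 11.9% and 17.8%. Ndufs8, with its low intron share, weighs heavily in the pooled total RNA values, and more so under the label shZc3h10. The pooled share was not computed without it. Taken gene by gene, the median share of the 35 genes was 83.0% in 4sU RNA and 25.9% in total RNA. In 4sU RNA 30 of the 35 genes had more counts in introns than in exons, and in total RNA 8 did. Ndufs8 was exon-rich in both, with an intron share of 12.6% ± 1.49 (SD, n = 3, shZc3h10) in 4sU RNA and 0.600% ± 0.133 (SD, n = 3, labelled shZc3h10) in total RNA. Ndufs3 kept a high share in total RNA, 74.0% ± 5.51 and 62.4% ± 9.63 (SD, n = 3 each, labelled shZc3h10 and scramble).

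Levels per kb of the longest transcript allow the genes to be compared with each other. Ndufs8 was highest in both kinds of RNA, with a mean of 82.7 CPM per kb in 4sU RNA (69.9 to 91.5 over 5 libraries) and 1395 in total RNA (585 to 2280 over 6 libraries). In total RNA the next was Ndufv1 at 107 (50.0 to 177), then Ndufs7 at 77.1 (57.7 to 111), so the lowest Ndufs8 library lay above the highest of either. In 4sU RNA the next was Ndufs1 at 24.7 (21.9 to 26.8), then Ndufb9 at 22.1 (17.3 to 27.1), and these neighbours overlapped. The core group had the highest median by role in both, 13.4 CPM per kb in 4sU RNA and 63.8 in total RNA. The distal arm had 6.64 and 10.7, the matrix arm accessory genes 9.42 and 15.0 and the proximal arm 6.21 and 6.11. The lowest was Ndufb2 (0.675 and 0.878), followed in total RNA by Ndufab1 (1.21). Where the longest annotated transcript is not the one made, as may be so for genes with a long annotated isoform, the level per kb is too low.

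Assembly factors build the enzyme without staying in it, and 14 of a list of 17 were in the tables. Of these 14, 0 were called by edgeR in 4sU exons, where 10.4% of all genes were. At an unadjusted p under 0.05 there was 1, where 22.8% of all genes passed. Their log2 fold changes ran from -0.44 (Tmem186) to 0.32 (Foxred1). In total exons 0 were called (6.42% of all genes) and 0 had an unadjusted p under 0.05 (26.9% of all genes). Log2 fold changes there ran from -0.58 (Tmem126b) to 0.44 (Ndufaf3), with a median of -0.10, the same as that of all genes to 2 decimals. Introns of Timmdc1, a membrane assembly factor, fell by 0.36 in 4sU RNA (SE 0.111, edgeR adjusted p = 0.0445). It was the 1 call among 13 assembly factors with tested introns there, where 6.57% of all genes were called lower. Ndufaf2, whose place in the enzyme Ndufa12 takes, was at 0.22 in 4sU exons and -0.52 in total exons and was not called in either.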

How the data were processed

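Each of the 11 libraries came with deposited raw read counts per gene over exons and over introns, 22 files in all. TopHat2 2.0.8, TopHat and the mouse build mm9 are named in the submitters' processing notes; for the counting program and strand, nothing is given in the sources used here. RefSeq shows another gene over 9 of the 35 subunit genes, whose counts are therefore uncertain. These are Ndufv2, Ndufs1, Ndufs7, Ndufa2, Ndufa1 (under Rnf113a1), Ndufa9, Ndufa10, Ndufa13 (under Tssk6) and Ndufb11 (under Rbm10). Total RNA was depleted of rRNA and libraries were made by random priming and Tn5 tagmentation, per the labels' protocols.

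Trimmed-mean-of-M-values normalisation, filterByExpr (minimum count 10, minimum total 15) and edgeR's quasi-likelihood test (version 4.0.16, under R 4.3.3) were run on all genes. DESeq2 1.42.0 was an alternative, beside other size factors, library totals alone, no filter, a replicate block and leaving out each library; the fit with the sign of the total RNA difference turned was chosen after seeing the data. The SE comes from the F statistic. Exon against intron change was tested with the library as a block, on genes that passed the filter in both. The exon fits between hairpins were tested on simulated counts with the same dispersion for every gene and both kinds of RNA. That test does not cover the wider spread of the real total RNA libraries.

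Depth is 10369374 counts or more over exons and 6007028 or more over introns. No library repeated another: the chi-square per degree of freedom between replicates was 10.1 to 459. Separate cultures are not stated for the replicates, and the p-values then cover only the spread among these libraries, which may be technical. The subunit genes and lists were chosen with earlier results of these data known. Values in every library are given for called genes, the 6 core subunits and the 2 largest rises and falls in each exon comparison between hairpins; for 4sU against total RNA, for the 3 highest and 3 lowest genes. Values of Ndufs4, Ndufs6, Ndufa5, Ndufb3, Ndufb9 and Ndufb10 were added after they were seen. Transcript lengths are from GENCODE vM21 and promoters from RefSeq GRCm38.p6, matched by symbol; no mm9 coordinates are given.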

Additional observations from a re-analysis of the deposited data

Results flagged for a closer look

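The difference between hairpins was not the same in the 2 kinds of RNA for 2 genes, by a test of that difference over all 11 libraries. For Ndufs8 it was -1.51 on the log2 scale (edgeR adjusted p = 0.0128): 4sU exons had 109 ± 13.2 CPM (SD, n = 3, shZc3h10) and 116 ± 10.2 (SD, n = 2, scramble), total exons 1525 ± 321 and 627 ± 200.4 (SD, n = 3 each). The test lost its call without 4sU scramble library 2 (edgeR adjusted p = 0.0528). For Ndufa13 it was 1.65 (edgeR adjusted p = 0.0429): 4sU exons had 5.05 ± 0.837 CPM (SD, n = 3) and 4.37 ± 0.0363 (SD, n = 2), total exons 1.71 to 3.57 and 4.74 to 11.4 (n = 3 each). In 8 of 11 fits without 1 library it was not called, with edgeR adjusted p from 0.0544 to 0.163. Both rest on the labels of total RNA, where Zc3h10 was higher in the libraries labelled shZc3h10. With the sign of the total RNA difference turned, as the file names would have it, they were 1.28 for Ndufs8 (edgeR adjusted p = 0.361) and -1.31 for Ndufa13 (edgeR adjusted p = 0.383), and neither was called.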

How the results depend on the processing

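The number of subunit genes called in total RNA exons, 2, was 6 with DESeq2 (13.6% of all genes) and 10 without a filter on low counts (7.7%). It was 0 to 14 when 1 library was left out. In total introns 0 became 1 with DESeq2 (9.08% of all genes) and without a filter (4.64%), and 0 to 2 without 1 library (1.53% to 7.39%). For 4sU exons 1 became 0 to 2 when 1 shZc3h10 library was left out (6.86% to 12.9% of all genes). For 4sU introns 1 became 0 to 1 in the same fits (11.2% to 19.7% of all genes). The 1 remaining intron call, without shZc3h10 library 1, was Ndufv3, higher by 0.74 (edgeR adjusted p = 0.0287), and not Ndufa12. The exon-beyond-intron count in total RNA, 0, was 3 without a filter (1.18% of all genes) and 0 to 8 without 1 library (0% to 4.81%). The count for the hairpin difference between kinds of RNA, 2, was 5 with library totals alone (13.8% of all genes). It was 1 to 13 without 1 total RNA library or 1 4sU shZc3h10 library (9.23% to 21.8% of all genes). With the sign of the total RNA difference turned it was 0 (0% of all genes), where Ndufs8 was at 1.28 and Ndufa13 at -1.31. The share of all genes called moved too: over the fits of total exons without 1 library it ran from 1.13% to 18.4%. For 4sU against total RNA exons, 24 became 14 with library totals alone, where 71% and 73.2% of all genes were called. The genes above 0 went from 5 to 14 of 35, with Ndufs3 (0.61), Ndufa7 (0.63) and Ndufa11 (0.74) among the 14. In introns the genes above 0 went from 22 to 18 of 33, and Ndufa7 turned to -0.045. The median of all genes moved by 0.78 in exons and by -0.53 in introns. With a replicate block the counts were 0 in 4sU exons (5.93% of all genes), 0 in 4sU introns (14%) and 0 in total exons (0.722%). The count for the difference between kinds of RNA was then 1 (11.3% of all genes). Deviations of same-numbered libraries from their group means correlated at -0.148 and -0.197 in 4sU exons and at 0.252, -0.212 and -0.219 in total exons. Deviations within a group sum to 0, and those of the 2 4sU scramble libraries mirror each other. These correlations therefore cannot settle whether replicate numbers pair libraries. Where a 4sU scramble library was left out, the lone one is assumed to vary like the other groups. Some genes rest on few counts: Ndufa1 had 30 to 224 exon counts per total RNA library.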
